A study of Mus musculus with 4 samples.

Results

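Aminoacyl-tRNA synthetases are the enzymes that join each amino acid to its transfer RNA, and their transcripts were followed here in mouse macrophages given galectin-1 after lipopolysaccharide. The genes were taken by symbol, as every entry named for a synthetase of the cytosol or of mitochondria. This gave 38 of the 23284 symbols, 21 for cytosolic enzymes and 17 for mitochondrial enzymes. The symbol rule uses no measured value, but it was set with earlier results of these data known. RNA sequencing was carried out on bone marrow-derived macrophages, a primary culture model of tissue macrophages grown from the marrow of wild type mice. The labels state no strain, age or sex. Every culture, seeded at 1000000 cells per well, was first activated by 1 h of lipopolysaccharide (LPS) at 1 µg/ml, a bacterial product that macrophages sense through a Toll-like receptor. A further 24 h of culture followed, in 1 group with galectin-1, a lectin that binds galactosides, as recombinant mouse protein at a dose not stated in the labels, and in the other with the vehicle, phosphate-buffered saline. Each group had 2 libraries. No library without LPS was analysed here, so the comparison is of galectin-1 with vehicle in activated cells.

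Each synthetase activates its amino acid with ATP and transfers it to the matching tRNA, so the set of enzymes supplies all substrates of the ribosome. The enzymes fall into 2 classes with unrelated catalytic folds, class I and class II. In the cytosol, 8 of the genes listed here encode members of the multisynthetase complex, which is held together by the scaffold proteins encoded by Aimp1, Aimp2 and Eef1e1. Mitochondria translate their own small set of mRNAs with mostly separate synthetases encoded by nuclear genes and usually marked by a trailing 2 in the symbol; Gars and Kars encode the enzymes of both compartments. In many cells the transcription factor Atf4 raises several cytosolic synthetase genes when amino acids run short, and Wars is known to be raised by interferon. Activated macrophages depend on the family for the cytokines and enzymes they produce.

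The values are FPKM, fragments scaled to transcript length and to library size, which allow levels of different genes to be set side by side. The library totals were 541138 to 557661 FPKM. Between 57.8 and 60.7% of the low values of single-transcript genes fell on steps of 1 to 4 fragments, from which the depth was estimated at 14118000 and 13619000 fragments for the vehicle libraries and 14635000 and 12237000 for the galectin-1 libraries. All 9 macrophage markers were above the test minimum of 1 FPKM, with summed levels of 9740 to 9754 FPKM with vehicle and 10536 to 10546 FPKM with galectin-1. Of the 9, 8 were higher with galectin-1 without overlap of the groups, as were 29.1% of all tested genes, while 26.2% were lower. The other, Mertk, was lower without overlap, at 19.1 and 16.9 FPKM by the means (-0.17, limma adjusted p = 0.167). None of the 9 passed the test, while Csf1r (limma adjusted p = 0.0349) and Lyz2 (0.0396) passed when small RNA entries were left out. The summed level of 8 dendritic cell markers was 24.3 to 24.4 FPKM with vehicle and 18.99 to 19.42 FPKM with galectin-1. Most of it was Fscn1 and Ccl22. Fscn1 fell from 11.5 to 8.01 FPKM by the means (-0.47, limma adjusted p = 0.0425), a call lost without any 1 library, with differences of -0.50 to -0.44. Ccl22 had 9.04 and 7.34 FPKM (limma adjusted p = 0.0911), and Ccr7 and Cd209a were also lower by their means. Flt3, Itgax, Xcr1 and Zbtb46 had higher means with galectin-1, Zbtb46 at 0.165 and 0.308 FPKM. The 9 fibroblast markers summed to 15.6 FPKM in both vehicle libraries and 18.7 to 19.3 FPKM with galectin-1. Of 6 proliferation genes Pcna had 306 and 329 FPKM by the means and Mki67 11.4 and 13.2 FPKM, the others were below 2.34 FPKM in every library with Birc5 lower by its mean, and none passed. Markers of neutrophils, of T and NK cells and of B cells summed to 4.30 FPKM or less per list and library. The defining T cell gene Cd3e and the erythroid gene Hba-a1 were listed at 0 in both groups. The part of these markers in the differences below was not tested. In bulk RNA, fewer cells of a type and less RNA per cell cannot be told apart.

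All 38 synthetase genes were above 0 in every library. Their summed level was 500.4 and 496 FPKM in the vehicle libraries and 500.4 and 512 FPKM in the galectin-1 libraries, so the sums of the groups overlapped. Of the 38, 30 had a mean of at least 1 FPKM and were tested. The 8 below it were Tarsl2, which encodes a second threonyl-tRNA synthetase, and 7 mitochondrial genes, among them Aars2, Ears2, Mars2, Nars2, Pars2 and Vars2.

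**Figure D1:**
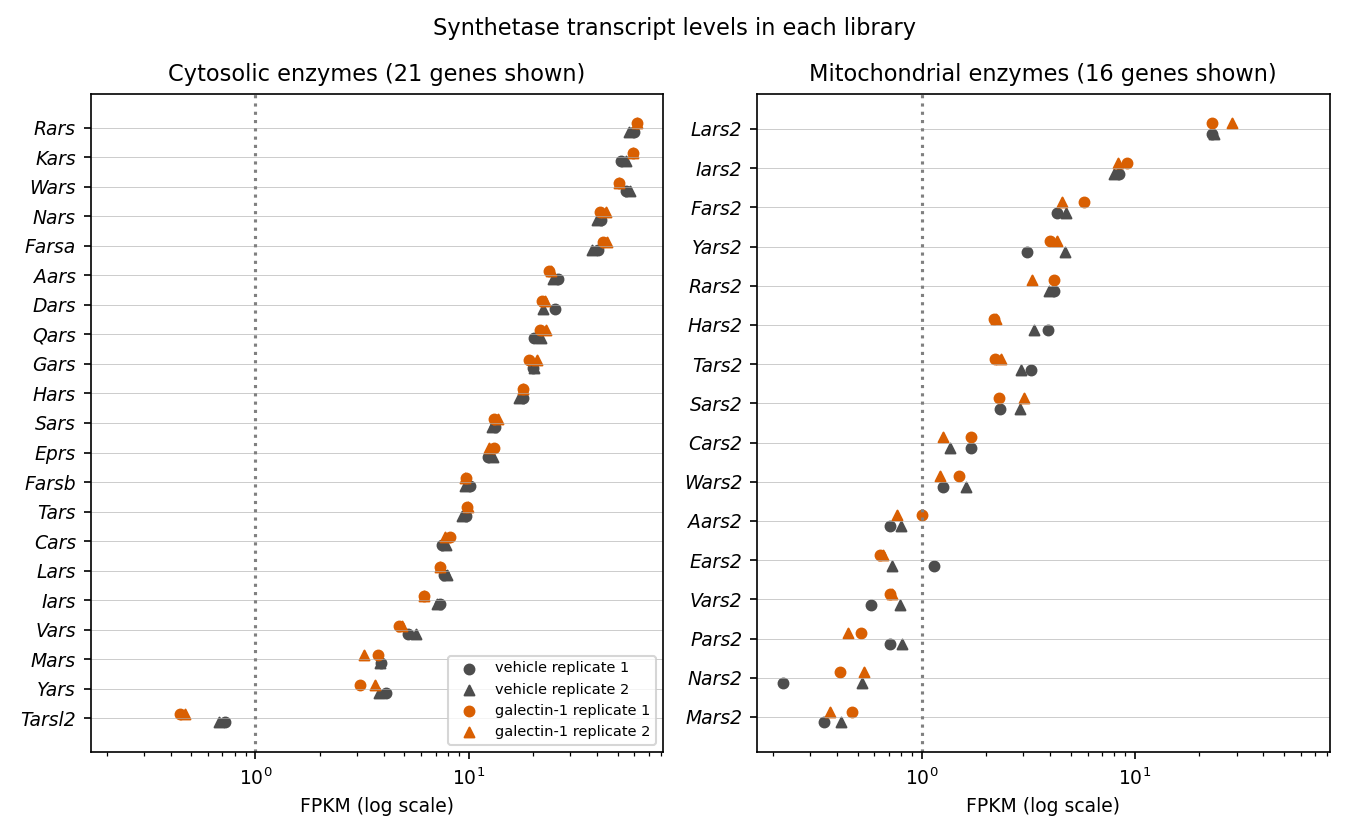
FPKM of 37 of the 38 synthetase genes in the 4 libraries, on a log axis, with cytosolic enzymes on the left and mitochondrial enzymes on the right; the dotted line is the test minimum of 1 FPKM. Rars, Kars and Wars lead the cytosolic enzymes and Lars2 the mitochondrial ones, and the groups lie close together for most genes.

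The highest member was Rars, for arginine, with 59.5 and 56.4 FPKM in the vehicle libraries and 61.6 and 62.0 FPKM in the galectin-1 libraries. Kars, for lysine, had 52.1 and 54.8 FPKM with vehicle and 59.0 and 59.2 FPKM with galectin-1. Wars, for tryptophan, had 54.8 and 56.9 FPKM with vehicle and 50.6 and 51.0 FPKM with galectin-1. Wars lay above Kars in both vehicle libraries and below it in both galectin-1 libraries, but the vehicle levels were close. Fragment counting alone leaves an estimated error per library of 2.57% to 2.80% for Kars and 2.86% to 3.19% for Wars. Levels of different genes also rest on transcript lengths, whose annotation is not given. The order was not tested, and neither gene passed in limma (adjusted p = 0.123 for Kars and 0.126 for Wars). Nars, for asparagine, followed with 41.7 and 39.8 FPKM with vehicle and 41.5 and 44.1 FPKM with galectin-1, where the groups overlapped. Farsa, the catalytic alpha subunit for phenylalanine, had a mean of 41.5 FPKM over the 4 libraries, and Farsb, its beta partner in the same tetramer, had 9.81 FPKM.

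Means of the middle range were 24.8 FPKM for Aars (alanine), 23.2 for Dars (aspartate), 21.7 for Qars (glutamine), 20.1 for Gars (glycine), 17.8 for Hars (histidine), 13.3 for Sars (serine) and 12.7 for Eprs, whose product serves glutamate and proline. Lower were Tars (threonine, 9.69 FPKM), Cars (cysteine, 7.81), Lars (leucine, 7.56), Iars (isoleucine, 6.70), Vars (valine, 5.11), Mars (methionine, 3.68) and Yars (tyrosine, 3.65). The cytosolic transcripts of one family thus covered a wide range, from 59.9 FPKM for Rars to 0.577 FPKM for Tarsl2. Of the 8 complex members, Rars and Kars were the highest of the family, and Mars, at 3.68 FPKM, was the lowest of the 8.

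The mitochondrial genes had a median level of 1.505 FPKM, against 13.3 FPKM for the cytosolic genes. Lars2, for leucine, stood far above the others at 24.5 FPKM, followed by Iars2 (isoleucine) at 8.47, Fars2 (phenylalanine) at 4.84, Yars2 (tyrosine) at 4.04 and Rars2 (arginine) at 3.89 FPKM. The remaining tested ones were Hars2, Tars2, Sars2, Cars2 and Wars2, from 2.92 FPKM for Hars2 down to 1.40 FPKM for Wars2. The 7 untested mitochondrial genes ranged from 0.401 FPKM for Mars2 to 0.818 FPKM for Aars2.

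Cytosolic and mitochondrial enzymes for the same amino acid were set side by side in 18 pairs that cover 17 amino acids. The cytosolic transcript was the higher one in all 4 libraries in 15 pairs. The median ratio of cytosolic to mitochondrial means was 7.92, and the ratio reached 98.7 for Nars over Nars2. The order was turned for 2 amino acids: Lars was at 0.308 of Lars2 and Iars at 0.791 of Iars2 by their means, with the mitochondrial gene higher in all 4 libraries. In the annotation, 37.2% of the Iars2 transcript matches Rab3gap2 on the opposite strand, and 37.4% of the Iars transcript matches Gm4849. How such reads were counted is not given, so the order of Iars and Iars2 is less certain. Yars and Yars2 had 3.65 and 4.04 FPKM, and Yars was above Yars2 in 1 library, vehicle replicate 1.

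**Figure D2:**
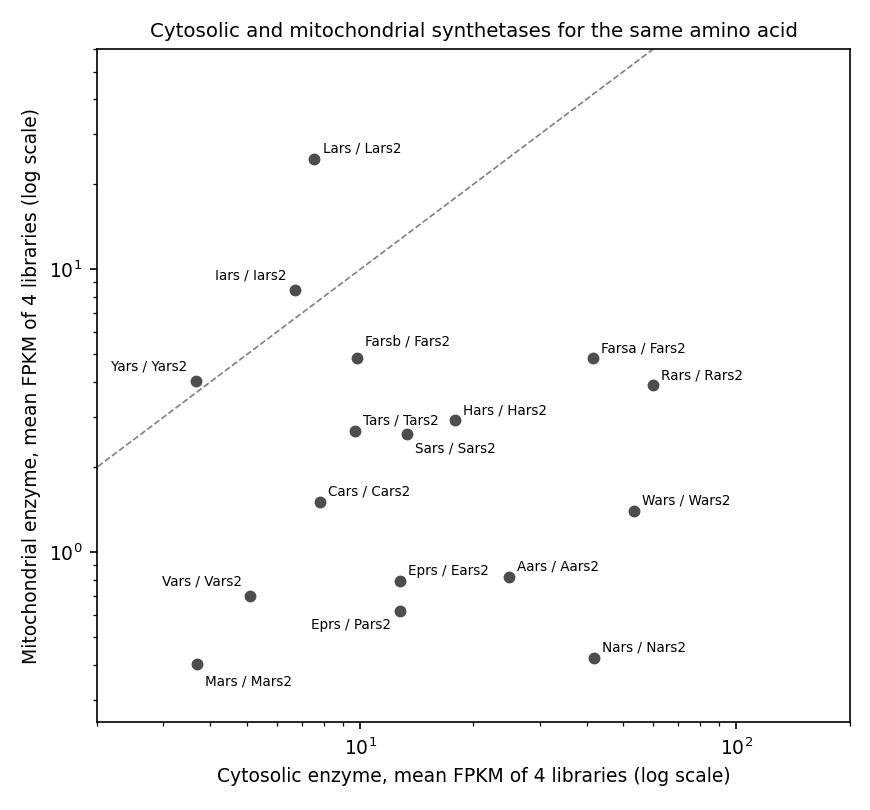
Mean FPKM over the 4 libraries of the cytosolic enzyme (horizontal, log scale) and of the mitochondrial enzyme (vertical, log scale) for the same amino acid, 1 point for each of 17 of the 18 pairs, with Eprs paired with Ears2 and with Pars2; the dashed line marks equal levels. Most of the 17 points lie below the line, and Lars2, Iars2 and Yars2 lie above it.

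The comparison of galectin-1 with vehicle asked whether the lectin altered these levels. None of the 30 tested synthetase genes passed in limma at an adjusted p under 0.05, while 6 had an unadjusted p under 0.05, 2 of them higher and 4 lower with galectin-1. Among all 9380 tested genes, 0.608% passed as higher and 0.586% as lower, 1.19% in all, and 23.2% had an unadjusted p under 0.05, 12.2% higher and 11% lower. The 6 members are near that background. Over all genes the calls were 57 higher and 55 lower, and 24 and 47 after quantile normalization, under which no member passed either. Differences were positive for 15 members and negative for 15, and 49.3% of all tested genes had a negative one. Their median was 0.00 and the median of their absolute values was 0.08 on the log2 scale, against 0.00 and 0.09 for all tested genes. Differences are of log2(FPKM + 1), so for low genes they come out smaller than the ratio of levels. The 95% intervals of 29 of the 30 differences lay within a 1.5-fold change in either direction on that scale, the exception being Hars2. The same held for 8813 of all 9380 tested genes, so the members are near that background. These intervals are not adjusted for the number of genes.

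**Figure D3:**
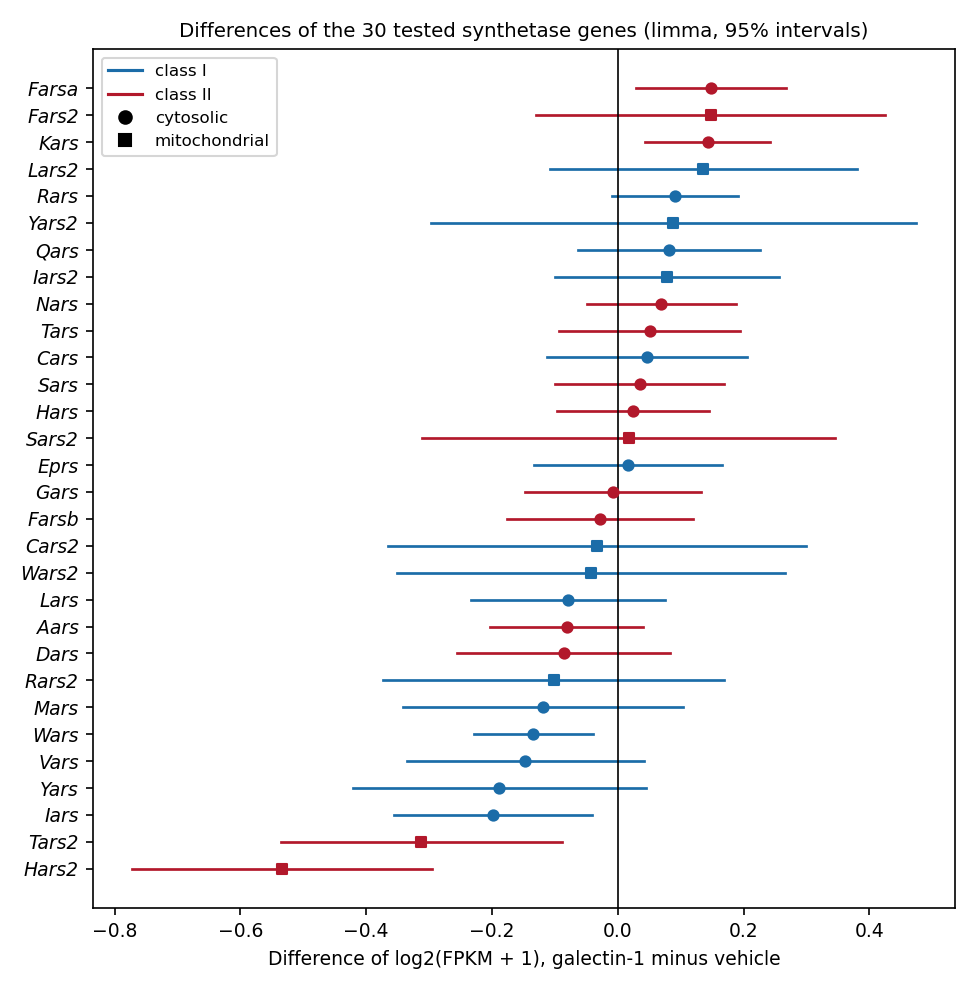
Difference of log2(FPKM + 1) between galectin-1 and vehicle for the 30 tested synthetase genes, with 95% intervals from limma; blue is class I and red class II, circles are cytosolic and squares mitochondrial enzymes. Most intervals cross 0, and Hars2 and Tars2 lie farthest to the left.

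Hars2, which encodes the mitochondrial histidyl-tRNA synthetase, differed most. It had 3.93 and 3.35 FPKM in the vehicle libraries and 2.18 and 2.22 FPKM in the galectin-1 libraries. Both galectin-1 values lay below both vehicle values, a level 1.65-fold lower by the means. The difference was -0.53 on the log2 scale with a standard error of 0.10 and missed the threshold (limma, adjusted p = 0.0638). It passed, with an adjusted p of 0.0349 in limma, when small RNA entries were left out of the fit, where 2.05% of 9335 genes passed as higher and 1.91% as lower. Over the 11 of 12 alternatives that gave a value, the difference was -0.70 to -0.44 and the adjusted p 0.0349 to 0.239. Its estimated fragments numbered 312 in the vehicle libraries and 182 in the galectin-1 libraries, so that counting alone gives an error of 0.13 on a log2 ratio of FPKM of -0.73. The SD was 11.2% of the mean with vehicle and 1.53% with galectin-1, the latter below the counting error of a single library, 7.64% to 10.9%.

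Hars2 shares its start region with Hars, the cytosolic histidine enzyme. Both lie on chromosome 18 on opposite strands, and in GENCODE M21 (GRCm38) their annotated 5′ ends overlap by 198 bases. RefSeq places the start of Hars at 36783205 and that of Hars2 at 36783202, a much shorter overlap. Hars had 18.0 and 17.3 FPKM with vehicle and 18.0 and 18.0 FPKM with galectin-1. Its difference was 0.02 with a 95% interval of -0.10 to 0.15 (limma, adjusted p = 0.806). The ratio of Hars to Hars2 was 4.59 and 5.17 in the vehicle libraries and 8.26 and 8.10 in the galectin-1 libraries. The library kit keeps strand, but whether counting used it, and how reads were divided between overlapping genes, are steps not given in the sources used here.

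Tars2, the mitochondrial threonine enzyme, was next among the tested genes on the log2(FPKM + 1) scale. It had 3.24 and 2.92 FPKM with vehicle and 2.22 and 2.35 FPKM with galectin-1, again without overlap. On the log2 scale it differed by -0.31, standard error 0.09 (limma, adjusted p = 0.128), from 184 and 132 estimated fragments. The gene lies on chromosome 3 from 95739976 to 95760206 on the minus strand (GENCODE M21). Its cytosolic counterpart Tars had 9.71 and 9.29 FPKM with vehicle and 9.86 and 9.88 FPKM with galectin-1, a difference of 0.05 (adjusted p = 0.645). The ratio of Tars to Tars2 was 2.999 and 3.179 with vehicle and 4.45 and 4.20 with galectin-1.

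The other 8 tested mitochondrial genes overlapped between the groups. Lars2 had 23.0 and 23.5 FPKM with vehicle and 23.0 and 28.6 FPKM with galectin-1, and its difference of 0.14 was -0.02 without galectin-1 replicate 2, the high library. Yars2 had its spread in the vehicle group, with 3.13 and 4.70 FPKM against 3.999 and 4.32 FPKM. The median difference over the 10 tested mitochondrial genes was -0.01, and leaving out vehicle replicate 1 moved it to -0.08, vehicle replicate 2 to 0.06. Among the genes under the test minimum, Pars2 (proline) had 0.712 and 0.807 FPKM with vehicle and 0.518 and 0.449 FPKM with galectin-1, from 41 and 26 estimated fragments. Ears2 (glutamate) had 1.14 and 0.725 against 0.639 and 0.654 FPKM. Tarsl2, the cytosolic gene under the minimum, had 0.722 and 0.671 against 0.444 and 0.469 FPKM. The groups of these 3 genes did not overlap, but the counting errors of the log2 ratios were 0.36 for Pars2, 0.33 for Ears2 and 0.31 for Tarsl2, and no test was made. Aars2, Mars2, Nars2 and Vars2 overlapped between the groups.

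Among the cytosolic enzymes, Kars was higher with galectin-1 by 0.14 on the log2 scale (limma, standard error 0.04, adjusted p = 0.123). This is 1.11-fold by the means, from the values given above, and the groups did not overlap. Farsa had 40.5 and 38.1 FPKM with vehicle and 42.7 and 44.6 FPKM with galectin-1 (0.15, standard error 0.05, adjusted p = 0.154). Its partner Farsb had 10.2 and 9.64 FPKM with vehicle and 9.76 and 9.64 FPKM with galectin-1 (-0.03, adjusted p = 0.814), and overlapped between the groups. Kars lies on chromosome 8 from 111993443 to 112011323 on the minus strand and Farsa on chromosome 8 from 84856989 to 84869257 on the plus strand.

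Wars differed by -0.13 on the log2 scale, standard error 0.04 (limma, adjusted p = 0.126), with both galectin-1 libraries below both vehicle libraries. It lies on chromosome 12 from 108860030 to 108894174 on the minus strand, where its annotation overlaps the weakly measured Wdr25 (0.940 FPKM) on the other strand. Iars had 7.33 and 7.14 FPKM with vehicle and 6.17 and 6.18 FPKM with galectin-1, also without overlap (-0.20, standard error 0.06, adjusted p = 0.149). Iars lies on chromosome 13 from 49682100 to 49734267 on the plus strand, and the annotated transcript of Gm4849 matches 1656 bases of its transcript at 96.0% identity, so reads may be divided between them. The galectin-1 libraries agreed closely for these genes: their SD was 0.165% of the mean for Iars, 0.168% for Kars and 0.452% for Wars, against counting errors per library of at least 4.83%, 2.57% and 2.86%. Such small spreads between 2 libraries enter the standard errors above.

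**Figure D4:**
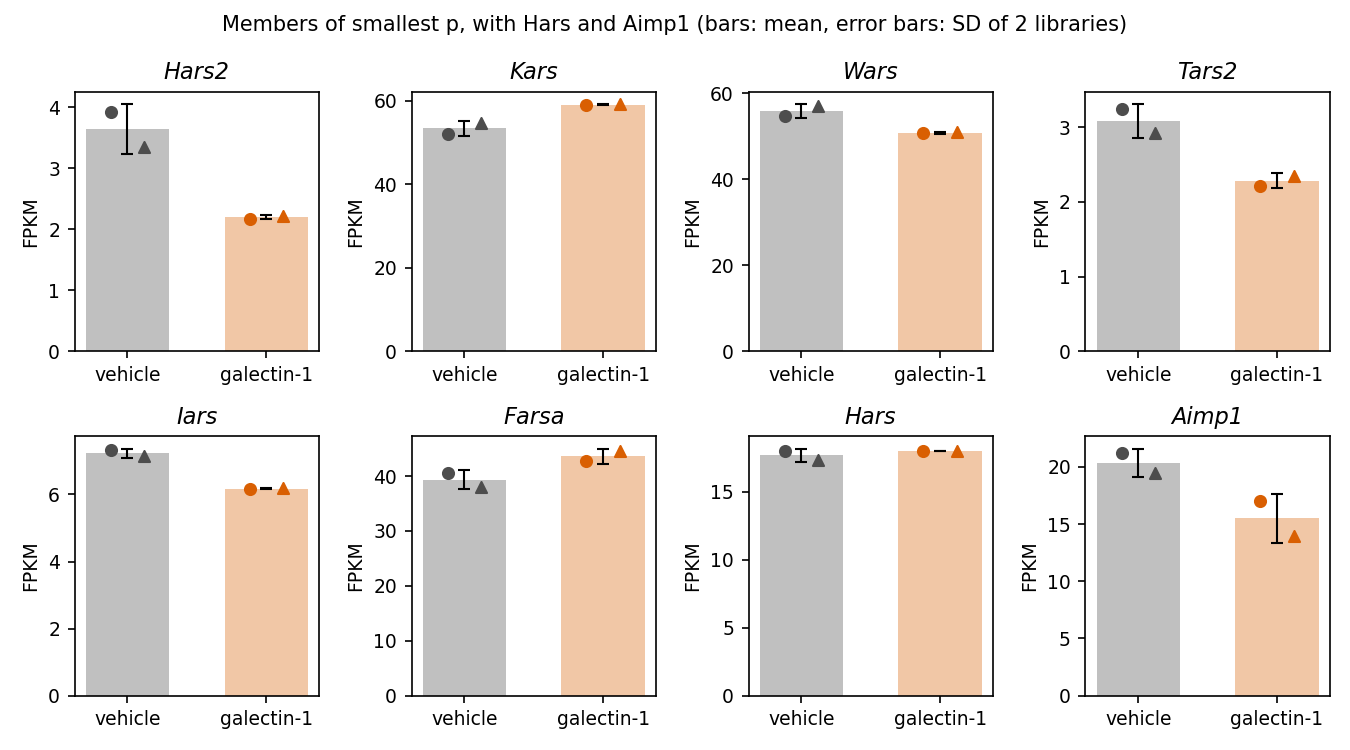
FPKM by group for the 6 synthetase genes of smallest p, with Hars, the cytosolic counterpart of Hars2, and Aimp1, a scaffold gene of the multisynthetase complex; points are libraries (circle replicate 1, triangle replicate 2), bars are means and error bars SD (n = 2 per group). Hars2, Tars2, Wars, Iars and Aimp1 are lower and Kars and Farsa higher with galectin-1 without overlap, and none passed the adjusted threshold in the fit over all 9380 genes.

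Counted without regard to the test, 9 of the 30 members were lower with galectin-1 in both libraries than in either vehicle library, and 4 were higher. Over all tested genes these shares were 26.2% and 29.1%, or 55.4% in either direction. Beside the 4 lower members named above, those lower without overlap were Yars (3.96 and 3.35 FPKM by the means, -0.19), Vars (5.42 and 4.80 FPKM, -0.15), Mars (3.87 and 3.49 FPKM, -0.12), Aars (25.5 and 24.1 FPKM, -0.08) and Lars (7.79 and 7.32 FPKM, -0.08). Rars (0.09) and Tars (0.05) joined Kars and Farsa as higher. Adjusted p in limma ran from 0.253 for Rars to 0.645 for Tars in these 7 genes. Leaving out 1 library moved each of these differences by over 1.5 times at its extreme: they ran from -0.28 to -0.10 for Yars, -0.20 to -0.09 for Vars, -0.20 to -0.03 for Mars, -0.12 to -0.04 for Aars, -0.11 to -0.05 for Lars, 0.05 to 0.13 for Rars and 0.02 to 0.08 for Tars. Of the 10 tested cytosolic class I genes, 6 were lower and 1 was higher without overlap, with a median difference of -0.10; of the 10 tested cytosolic class II genes, 1 was lower and 3 were higher, with a median of 0.03. The mitochondrial genes went the other way. The 6 tested of class I all overlapped, with a median of 0.02, and of the 4 tested of class II, 2 were lower, with a median of -0.15. Over both compartments the medians were -0.04 for class I and 0.02 for class II. Eprs, whose product serves glutamate and proline, was counted in class I only, while the mitochondrial proline gene Pars2 was counted in class II. No test of the difference between the classes was made. Mars overlaps Ddit3, a stress-response transcription factor gene at 51.3 FPKM on the opposite strand, by 68 bases in the annotation. Aars shares 1326 bases on its own strand with Exosc6 (1.79 FPKM), and Iars2 overlaps Rab3gap2 (7.76 FPKM) by 2034 bases on the opposite strand.

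The synthetases of the multisynthetase complex differed in direction. Of these 8, Kars and Rars were higher and Iars, Lars and Mars lower without overlap, Dars (-0.09), Qars (0.08) and Eprs (0.02) overlapped, and none passed. Over all tested genes 29.1% were higher and 26.2% lower without overlap, so these counts are near that background. The scaffold gene Aimp1 had 21.2 and 19.5 FPKM with vehicle and 17.0 and 14.0 FPKM with galectin-1, a difference of -0.38 (limma, standard error 0.10, adjusted p = 0.108). That difference was -0.51 without galectin-1 replicate 1 and -0.24 without galectin-1 replicate 2. For Aimp2 the means were 5.66 and 5.83 FPKM (0.04, adjusted p = 0.781) and for Eef1e1 17.0 and 18.9 FPKM (0.14, adjusted p = 0.266). None of these 3 scaffold genes passed. The remaining cytosolic members, Gars (-0.01), Cars (0.05), Sars (0.03), Nars (0.07), Hars and Farsb, overlapped between the groups.

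The promoters of the synthetase genes were searched for elements of Atf4 and of interferon signalling, the regulators named above. Atf4 itself had 87.7 and 84.0 FPKM with vehicle and 98.6 and 102 FPKM with galectin-1 (0.22, limma adjusted p = 0.0614). RefSeq start sites (GRCm38.p6) matched 28 of the 38 genes; among those without an entry were Cars, Hars, Hars2, Lars, Nars, Pars2, Rars, Vars and Wars. In the 250 bases before the start, the C/EBP-ATF element bound by Atf4, searched as TGATGNAA on both strands, was found in 3 of the 28, Aars, Gars and Tars, and in 3.45% of 32851 promoters. The STAT site, TTCNNNGAA, was found in Aars, Kars and Nars2 and in 7.02% of promoters. The interferon response element, searched as GAAA, 2 bases of any kind and GAAA, was found in Qars and in 2.98% of promoters. The sequences below show the C/EBP-ATF matches of Gars and Tars and the STAT match next to the start of Kars, 5′ to 3′ along each gene, with the matched letters in capitals; those for Gars and Tars are the element read from its other strand.
Gars, chr6:55037851-55038000, plus strand: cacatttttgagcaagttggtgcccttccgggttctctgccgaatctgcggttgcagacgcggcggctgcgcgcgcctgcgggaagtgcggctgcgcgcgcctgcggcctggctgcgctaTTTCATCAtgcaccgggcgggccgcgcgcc
Tars, chr15:11399666-11399808, minus strand: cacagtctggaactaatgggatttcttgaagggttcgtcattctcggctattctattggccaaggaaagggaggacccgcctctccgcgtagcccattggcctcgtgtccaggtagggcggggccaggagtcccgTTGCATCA
Kars, chr8:112011355-112011397, minus strand: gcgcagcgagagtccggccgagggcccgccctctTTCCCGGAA

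The matches began 30 bases before the start for Gars, 15 for Tars and 9 for Kars. The 3 genes with a C/EBP-ATF match had differences of -0.01 (Gars), 0.05 (Tars) and -0.08 (Aars), the first overlapping between the groups. Gars had 20.1 and 20.3 FPKM with vehicle and 19.2 and 20.97 FPKM with galectin-1, and Aars had 26.3 and 24.8 against 23.8 and 24.3 FPKM. A match describes letters in this window and says nothing of binding. The RefSeq entry of Aars begins at 111027778, upstream of its GENCODE start at 111033144, so its searched window depends on the annotation. Members were counted by gene and the background by promoter entry.

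Genes that work with the synthetases were read from lists of other steps. Of 14 tested accessory, editing and amidotransferase genes, none passed, 1 had an unadjusted p under 0.05 and the median difference was -0.05. That gene was Gatc, a subunit of the mitochondrial enzyme that makes glutaminyl-tRNA by amidation, with 2.44 and 1.82 FPKM by the means (-0.29, limma adjusted p = 0.172). Of 13 tested translation factors none passed and 5 had an unadjusted p under 0.05, 3 higher and 2 lower. Among all 9380 tested genes 23.2% had such a p in limma, the share to set beside the counts of both lists. By the means of vehicle and galectin-1, Eef2, the translocase of the cytosolic ribosome, was at 381 and 418 FPKM (0.14, limma adjusted p = 0.0731). Etf1, the release factor, was at 43.3 and 51.5 FPKM (0.24, adjusted p = 0.0767), and Tsfm, a mitochondrial elongation factor, at 4.14 and 2.87 FPKM (-0.41, adjusted p = 0.106). The median of the 13 was 0.02.

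Of 18 tested genes of amino acid sensing and the Atf4 response, none passed and 2 had an unadjusted p under 0.05, Atf4 itself and Psat1, a serine synthesis enzyme (32.6 and 29.5 FPKM, -0.14, limma adjusted p = 0.184). The median of that list was -0.06. Among all tested genes 23.2% had an unadjusted p under 0.05 in limma, 12.2% higher and 11% lower. Of 11 tested amino acid transporters, 10 did not pass and the median was 0.04. Slc38a2, a neutral amino acid importer, passed and rose from 8.44 and 7.90 FPKM to 14.1 and 12.8 FPKM (0.65, limma adjusted p = 0.0351). In that list 4 of the 11 had an unadjusted p under 0.05, 2 higher and 2 lower. Slc7a7, which exchanges cationic for neutral amino acids, had 13.6 and 9.86 FPKM (-0.43, adjusted p = 0.0552), and Slc3a2, the heavy chain of several exchangers, 145 and 165 FPKM (0.19, adjusted p = 0.0562). Among 11 tested interferon-induced genes listed as companions of Wars, 10 did not pass and the median was 0.04. Gbp4, a guanylate-binding protein gene, passed and fell from 156 and 161 FPKM to 119 and 115 FPKM (-0.43, limma adjusted p = 0.0179). Here 7 of the 11 had an unadjusted p under 0.05, 5 higher and 2 lower. The call of Slc38a2 was lost without any 1 library (adjusted p 0.133 to 0.17), as was that of Gbp4 (0.0696 to 0.105), with differences of 0.59 to 0.72 and -0.46 to -0.41. In the limma fit without small RNA entries Atf4 (adjusted p = 0.0306), Eef2 (0.046), Etf1 (0.0423), Slc7a7 (0.0239), Slc3a2 (0.0293) and Slc7a2 (-0.28, 0.0399) also passed. So did 3 more of the interferon-induced genes, the chemokine gene Cxcl9 as lower (-0.27, adjusted p = 0.0372) and Ifit1 (0.15, 0.0408) and Isg15 (0.13, 0.0479) as higher.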

How the data were processed

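The 4 mRNA libraries were made with a stranded kit, per the labels' protocols. For each library the authors deposited an FPKM value per symbol. Named without roles in the submitters' processing notes are Cufflinks 2.2.1, SAMtools 0.1.19, Bowtie2 2.2.3, TopHat2 2.0.13 and the genome build mm10. Annotation, filters and the treatment of shared reads are steps not given in the sources used here. Groups came from the sample titles. Nothing says that libraries came from separate cultures, so p-values measure only the spread between them, which may be technical.

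The members and gene lists were chosen with earlier results of these data known. Values were compared as log2(FPKM + 1) for 9380 genes (mean over the libraries 1 FPKM or more) with limma 3.58.1 in R 4.3.3 (empirical Bayes, mean-variance trend, 2-sided, Benjamini-Hochberg over all tested genes, threshold 0.05). A permutation of 2 against 2 libraries cannot go below a p of 0.333. The script was tested on simulated data. Values in every library are given for the 6 members of smallest p and the 4 of highest level, and from other lists for genes past the threshold, with up to 4 of smallest p. Genes named beyond this, among them Hars, Tars, Farsb, Lars2, Yars2, Pars2, Ears2, Gars and Aars, were chosen after their values were seen. Single values of 1 mitochondrial gene are not reported here; it is kept in counts, medians and sums. Depth was estimated from single-transcript genes below 0.15 FPKM, whose values fell on steps of 1 to 4 fragments for 57.8 to 60.7% of them (natural log tolerance 0.03, transcript length less 250 bases). Depth and the 250 bases were set to put as many values as possible on the step of 1 fragment, so that share does not test the estimate. Fragment numbers used principal GENCODE M21 transcripts and are estimates, covering counting error only. Near-identical transcripts were sought with blastn 2.17.0 (at least 90% identity over 200 bases).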

Additional observations from a re-analysis of the deposited data

How the results depend on the processing

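Over 12 alternatives, 332 of 350 values of the tested synthetase genes kept their direction and their side of the threshold, 17 changed sign in 11 genes, and 1 passed. That 1 was Hars2 without the small RNA entries, which makes the count of lower members 1 in place of 0. Counts over all genes, 57 higher and 55 lower, were 127 and 99 with a minimum mean of 5 FPKM, 1 and 2 with no filter, 1 and 1 without the trend, 191 and 178 without small RNA entries, and 24 higher after quantile normalization. With a replicate block they were 123 and 117, and no synthetase gene passed. Aimp1 (limma adjusted p 0.0398), Etf1 (0.0492), Slc7a7 (0.0348), Slc3a2 (0.0489), Cxcl9 (0.025) and Ifit1 (0.0493) did pass. Whether same-numbered libraries were paired is not stated in the labels. Deviations of these libraries from their group means correlated at 0.0114 over the tested genes and 0.0333 without small RNA entries. A pairing that touches only some genes would not show in such a value. Leaving out 1 library gave 4 to 9 higher and 3 to 12 lower, with the lone library of a group assumed to vary like the other group.

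The median of the mitochondrial genes, -0.0078, was 0.107 with that minimum of 5 FPKM, 0.03 with no filter, 0.0429 after quantile normalization and -0.0817 to 0.0557 with 1 library left out. Quantile normalization turned Cars2 to 0.0241 and Wars2 to 0.0079. With 1 library left out, differences ran from -0.0174 to 0.2897 for Lars2, -0.1752 to 0.003 for Dars, -0.0674 to 0.0519 for Gars, -0.0031 to 0.052 for Hars, -0.0258 to 0.0585 for Eprs, -0.0657 to 0.0084 for Farsb, -0.1444 to 0.3213 for Yars2, -0.2375 to 0.0339 for Rars2, -0.1225 to 0.1577 for Sars2, -0.163 to 0.0969 for Cars2 and -0.1487 to 0.0647 for Wars2. For 20 named genes of the other lists the same alternatives were run after seeing the data, and none changed sign; Slc38a2, Gbp4 and Fscn1 lost their call with no filter (adjusted p 0.13, 0.123 and 0.13) and without the trend (0.138 for each). The cause of these shifts was not tested. Depth limits the low genes: at 26 to 126 estimated fragments per group, counting alone leaves an error of 0.19 to 0.36 on the log2 ratio of the 8 untested genes. The 126 fragments and the 0.19 are those of Mars2, taken over a GENCODE transcript of 11294 bases. Its RefSeq entry spans only 55237177 to 55240058 on chromosome 1, so its fragments may be overestimated and its error too low.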
